A study of Mus musculus with 6 samples.

Results

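Potassium channel genes were taken as every row of the cellular gene table whose symbol begins with Kcn, one or more lower-case letters and a digit, which gave 94 of 21927 rows. The tissue was the vermis, which forms the midline of the cerebellum, from mice aged 8 weeks, with 1 library for each sample. The 2 groups were 3 mice of the strain called dCas, the controls, and 3 mice of the strain called LINE-1a, in which the retrotransposon LINE-1 is activated, by the study's own account. The alleles behind these names, the promoter that drives them and any component common to both strains are not known from the sources used here. Of the 94 genes, 93 code for channel subunits or their partner proteins and 1, Kcnmb4os1, is an antisense RNA gene. A mean of at least 10 normalized counts over the 6 libraries was reached by 79 of them, and these were tested.

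Potassium channels let potassium flow out of cells, which sets the resting potential, ends each action potential and fixes how fast a neuron can fire again. Most pore subunits assemble as tetramers, and their auxiliary subunits change gating, trafficking or both. In the cerebellum, A-type channels of the Kv4 family shape the excitability of granule cells, Kv3 channels allow Purkinje cells and interneurons to fire fast, and calcium-activated channels time the pauses between spikes. Inward rectifiers of glia take up the potassium that active neurons release. Mutations in several of these genes, among them KCNA1 and KCND3 in humans, cause inherited ataxias.

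None of the 79 tested genes passed the test between LINE-1a and dCas vermis. The test was limma on log2(normalized count + 1), with a Benjamini-Hochberg adjusted p of 0.05 over all 15800 features of the table as the threshold, and it called 0.146% of all features. The smallest adjusted p of any potassium channel gene was 0.325, and on the reads recovered from the table edgeR and DESeq2 also called 0, where they called 0.146% and 0.88% of all features. At an unadjusted p under 0.05, limma had 9 potassium channel genes with higher and 3 with lower LINE-1a values, edgeR had 11 and 2, and DESeq2 had 12 and 3. The same level took in 14.5% of all features in edgeR and 15.9% in DESeq2. Over all features limma had 7.94% higher and 7.35% lower at that level, so the share in either direction was 15.2% of the potassium channel genes against 15.3% of all features. The median log2 fold change (LINE-1a minus dCas throughout) was 0.06 over the 79 genes and 0.03 over all features. The values that follow are therefore descriptions of levels and of differences that did not pass.

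The libraries held 23483158 to 33445789 gene reads. By 4 Y-linked genes, LINE-1a 1 and LINE-1a 2 were female and the other libraries male, so sex and group are partly confounded. Both female libraries are LINE-1a, so with sex as a covariate each fold change sets LINE-1a 3 alone against the dCas libraries. With sex as a covariate 6 potassium channel genes (7.59%) had an unadjusted p under 0.05, 4 of them higher, against 4.28% of all features. In the male libraries alone, with 1 LINE-1a library, 15 did (19%), 11 of them higher, against 15.1% of all features. LINE-1a 2 stood at the end of principal component 1 (46.6% of the variance), and its rRNA share of the repeat table was 10.2%, against 5.39% to 7.86% in the others. Granule cell and Purkinje cell markers were abundant in each library, with Gabra6 between 14572 and 17492 and Calb1 between 4705 and 6911 normalized counts. The level was not even for Purkinje cell markers, of which 7 of 8 had a log2 fold change below 0. Their sums were 148087, 170760 and 172157 in dCas and 133230, 108292 and 104539 in LINE-1a libraries. Of 8 granule cell markers 4 were above 0 and 4 below, with sums of 88694, 104819 and 108203 in dCas and 92318, 79579 and 80034 in LINE-1a libraries. These are bulk libraries, in which fewer cells of a type and less RNA per cell cannot be told apart.

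A pair of subunits of the same channel complex dominated the levels. Per kilobase of exon, Kcnip4, a calcium-binding auxiliary subunit of Kv4 channels, was at 14106 and Kcnd2, which codes for the pore subunit Kv4.2, at 7085 normalized counts, as means over 6 libraries. Together they held between 41.7% and 63.2% of all potassium channel counts, and the whole family made up 0.584% to 1.31% of the counts in the table. The next levels per kilobase were far lower, at 1035 for Kcnip3, another Kv4 partner, 999 for Kcnab2, 960 for Kcnk1 and 946 for Kcnab1. The ranges of these 4 over the libraries overlapped, with Kcnip3 at 1052 ± 130 and Kcnk1 at 916 ± 158 in dCas libraries (SD, n = 3). In all, 12 genes had at least 500 normalized counts per kilobase, 23 had 100 to 500, 30 had 10 to 100 and 29 were under 10. All 94 genes had reads in at least 1 library, and the 15 that were not tested had means of 0.935 to 9.96 normalized counts.

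**Figure D1:**
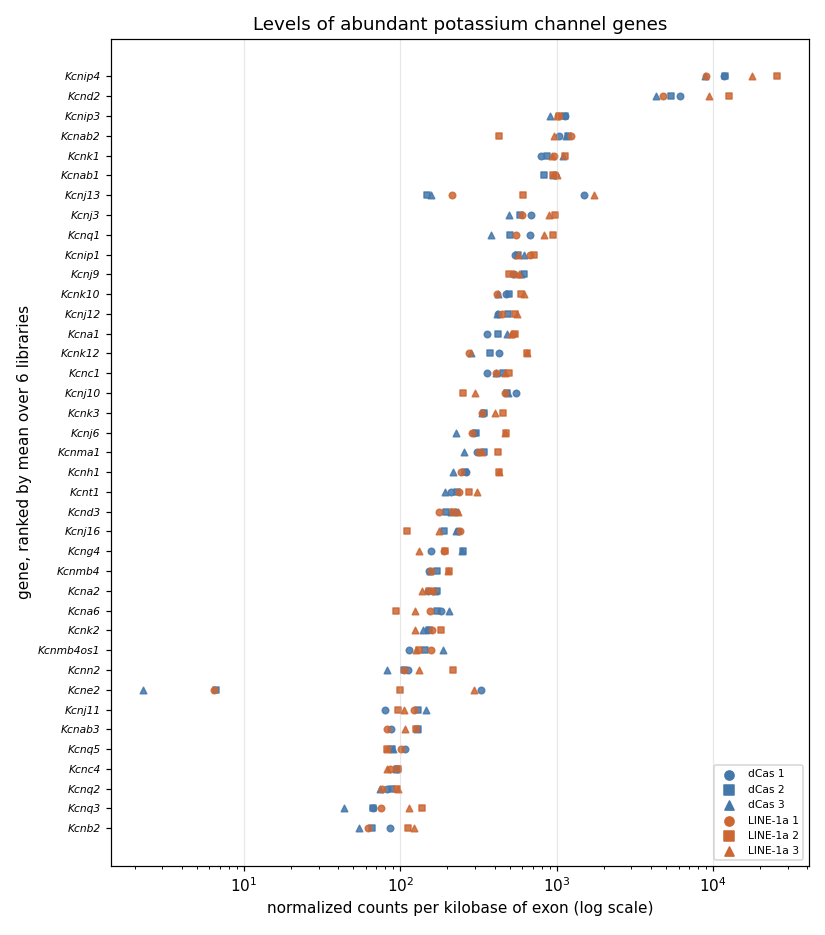
Normalized counts per kilobase of exon (log axis) of 39 of the 40 most abundant potassium channel genes, 1 point per library, with dCas in blue and LINE-1a in orange. Kcnip4 and Kcnd2 stand above every other gene in all 6 libraries, and Kcnj13 and Kcne2 spread most between libraries of the same group.

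Promoters are shown for this dominant pair and, for contrast, for Kcnj13 and Kcne2, the members that varied most between libraries. RefSeq (GRCm38.p6) gave promoter windows for 68 of the 94 genes. The 250 bases before the first listed start were searched on both strands for 4 motifs, whose matches are in capitals below. These were the TATA box (TATAAA), the GC box (GGGCGG), the core of OTX factor sites (TAATCC) and the CRE (TGACGTCA), and no pair of matches in the printed windows overlaps. The Kcnd2 window is chr6:21215096-21215345 (plus strand), that of Kcnip4 chr5:49285660-49285909 (minus strand), that of Kcnj13 chr1:87394730-87394979 (minus strand) and that of Kcne2 chr16:92292139-92292388 (plus strand). Kcnip4 and Kcne2 have 2 listed starts each, of which only the first is shown. The Kcnip4 window lies inside the annotated gene, whose far end on the minus strand is at 49524907. Which starts are used in the vermis was not tested.
Kcnd2: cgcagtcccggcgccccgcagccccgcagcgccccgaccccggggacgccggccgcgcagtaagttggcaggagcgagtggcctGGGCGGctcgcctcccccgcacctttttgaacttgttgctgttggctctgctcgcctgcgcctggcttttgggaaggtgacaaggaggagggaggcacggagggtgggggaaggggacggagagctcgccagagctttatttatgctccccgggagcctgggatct
Kcnip4: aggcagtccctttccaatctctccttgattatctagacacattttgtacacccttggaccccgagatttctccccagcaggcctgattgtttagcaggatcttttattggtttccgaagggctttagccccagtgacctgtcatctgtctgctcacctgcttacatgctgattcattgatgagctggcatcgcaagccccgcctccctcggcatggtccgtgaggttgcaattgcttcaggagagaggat
Kcnj13: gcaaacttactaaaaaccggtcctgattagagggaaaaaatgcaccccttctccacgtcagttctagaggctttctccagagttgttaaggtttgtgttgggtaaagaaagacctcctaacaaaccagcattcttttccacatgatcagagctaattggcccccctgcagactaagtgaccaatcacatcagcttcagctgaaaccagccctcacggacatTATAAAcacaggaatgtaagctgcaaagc
Kcne2: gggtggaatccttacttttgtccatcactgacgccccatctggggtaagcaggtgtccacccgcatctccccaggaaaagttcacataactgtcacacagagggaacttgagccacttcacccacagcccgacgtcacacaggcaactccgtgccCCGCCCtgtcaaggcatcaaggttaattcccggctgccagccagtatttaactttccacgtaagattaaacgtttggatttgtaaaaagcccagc
The Kcnd2 window held 22 CG dinucleotides and a GC box, and the Kcnip4 window 6 CG dinucleotides and none of the motifs. The Kcnj13 window held 3 CG dinucleotides and a TATAAA, and the Kcne2 window 9 CG dinucleotides and a GC box on the minus strand. A GC box stood in 34 of the 68 potassium channel promoters (50%) and in 32.9% of all 27025 promoters. TATAAA stood in 2 of the 68 (2.94%), those of Kcnj13 and Kcnj9, and in 13% of all. TAATCC stood in 1 of the 68 (1.47%), that of Kcnj9, and in 6.38% of all, and the CRE in 0 of the 68 and in 1.62% of all. The median number of CG dinucleotides was 8 in potassium channel promoters and 6 in all promoters.

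Among the Kv4 subunits, Kcnd2 (chromosome 6, 21215503 to 21729805, GRCm38) was 31456, 27565 and 22151 normalized counts in dCas 1 to 3 and 24558, 65032 and 48258 in LINE-1a 1 to 3. Kcnip4 (chromosome 5, 48389502 to 49524907) was 42737, 42992 and 32256 in dCas and 32744, 92365 and 63882 in LINE-1a libraries. For both genes LINE-1a 2 was highest, LINE-1a 3 came next, and LINE-1a 1 lay within the dCas range, so the groups overlapped. The log2 fold change of Kcnd2 was 0.67 ± 0.36 (SE, 95% interval -0.14 to 1.48) and that of Kcnip4 0.57 ± 0.38 (-0.29 to 1.43), with limma adjusted p of 0.36 and 0.44. Without LINE-1a 2 they were 0.36 and 0.23, and without LINE-1a 1 they were 1.06 and 0.98. The ratio of Kcnd2 to Kcnip4 per kilobase stayed between 0.451 and 0.532 in the 6 libraries. Kcnd3, the pore subunit Kv4.3 and a human ataxia gene, lay between 1704 and 2252 in every library (log2 fold change -0.02, 0.10 with equal totals in all libraries). Kcnd1, the least abundant Kv4 pore subunit, averaged 260.2 ± 35 in controls and 192 ± 84.8 in LINE-1a vermis (SD, n = 3), with its lowest value, 106, in LINE-1a 2.

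The partners of Kv4 channels did not all take the pattern of Kcnip4. Kcnip3 was 3730 ± 462 in dCas and 3613 ± 55.4 in LINE-1a libraries (SD, n = 3), and Kcnip1, a partner expressed by interneurons among other cells, 3568 ± 241 and 4055 ± 483. Kcnip2 was 60.9, 83.2 and 60.7 in dCas and 51.7, 46.8 and 56.6 in LINE-1a libraries, without overlap between the groups and with a log2 fold change of -0.38 ± 0.24 (SE), or -0.23 without dCas 2. Of the transmembrane partners, which the Kcn symbols do not cover, Dpp6 had a log2 fold change of 0.35 and Dpp10 of 0.05, neither past the threshold.

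Kv1 channels, the low-threshold channels of axons and terminals, gave values in opposite directions. Kcna1 (Kv1.1, the gene of episodic ataxia type 1 in humans) was 1702, 2011 and 2298 in dCas and 2496, 2592 and 2433 in LINE-1a libraries. All LINE-1a values lay above all dCas values, and those of LINE-1a were tight, at 2507 ± 80.3 (SD, n = 3). Its log2 fold change was 0.33 ± 0.15 (SE), or 0.22 without dCas 1, with a limma adjusted p of 0.325. Kcna6 (Kv1.6; chromosome 6, 126708329 to 126740674) was 1084, 1019 and 1221 in dCas and 922, 554 and 735 in LINE-1a libraries. Here all LINE-1a values lay below all dCas values (log2 fold change -0.61 ± 0.19, 95% interval -1.05 to -0.18, limma adjusted p = 0.325). An antisense gene annotated on the opposite strand covers 39.6% of the exon length of Kcna6, and the library kit did not mark strand. Kcna2, which pairs with Kcna1 in many axons, was 1935 ± 122 and 1792 ± 155, with a log2 fold change of -0.11 (0.01 with equal totals). Kcna4 was 115 ± 34.7 and 73.2 ± 30.7, overlapping between the groups. Of the cytoplasmic beta subunits, Kcnab1 was 7879 ± 654 and 8379 ± 230, and Kcnab2 was 2381 in LINE-1a 2 and between 5362 and 6901 in the other 5 libraries.

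**Figure D2:**
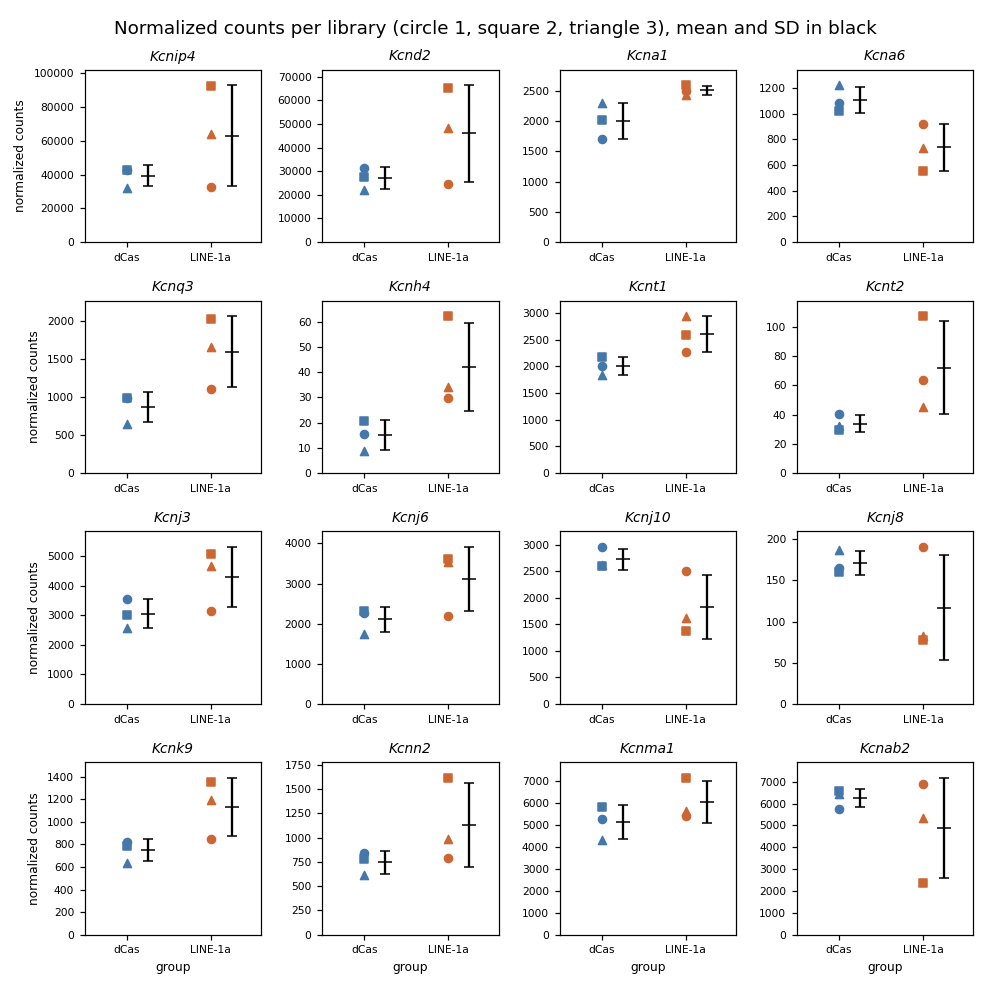
Normalized counts of 16 potassium channel genes, each panel from 0, with circles, squares and triangles for mice 1, 2 and 3 of a group and the mean and SD in black. LINE-1a 1 lies within or next to the dCas values for Kcnip4, Kcnd2, Kcnj3, Kcnj6, Kcnj8 and Kcnn2, while Kcna1, Kcna6, Kcnq3, Kcnh4, Kcnt1, Kcnt2, Kcnj10 and Kcnk9 do not overlap between the groups.

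Kcnc1, a Kv3 pore subunit of fast-firing neurons, overlapped between the groups. Its mean was 3847 ± 459 in the controls and 4306 ± 404 in LINE-1a vermis (SD, n = 3). Fold changes of the 15 tested Kv1 to Kv4 pore genes were positive in 7 and negative in 8 (median log2 fold change -0.02). Of them 1 (Kcna6) had an unadjusted limma p under 0.05, where 15.3% of all features did.

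Kv7 channels carry the M-current, a slow brake on firing that muscarinic receptors close. Kcnq3 (chromosome 15, 65986387 to 66286642) was 983, 989 and 642 in dCas and 1109, 2036 and 1663 in LINE-1a libraries. All LINE-1a values were above all dCas values, and LINE-1a 1 was only just above them. The log2 fold change was 0.86 ± 0.25 (SE, 95% interval 0.30 to 1.42), with an adjusted p of 0.325 in limma and of 0.0908 in DESeq2, the smallest that any tool gave a potassium channel gene in the full set of libraries. Kcnq1, the cardiac and epithelial member, was 2113 ± 607 and 3173 ± 852 (SD, n = 3; log2 fold change 0.59, or 0.38 without dCas 3). The antisense RNA Kcnq1ot1 shares 121 exon bases, 2.96% of those of Kcnq1, and reads on these cannot be assigned without strand. Of the 5 Kv7 genes, 3 were above 0 and 2 below.

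Among the channels of the EAG, ERG and ELK group, Kcnh4, an ELK subunit (chromosome 11, 100740376 to 100759942), had the smallest unadjusted p of all tested potassium channel genes in limma, though not in DESeq2. It was 15.4, 20.6 and 8.67 in dCas and 29.9, 62.1 and 34.0 in LINE-1a libraries, without overlap, but at a low level. Its log2 fold change was 1.44 ± 0.41 (SE, 95% interval 0.53 to 2.35), the largest in limma after that of Kcne2, with a limma adjusted p of 0.325. Kcnh1, the EAG1 subunit, averaged 1807 ± 196 in controls and 2678 ± 764 in LINE-1a vermis (SD, n = 3), with LINE-1a 1 at 1796, inside the dCas range. The other 6 of the 8 Kcnh genes were below 0, between -0.46 and -0.0025, and of these Kcnh6, an ERG subunit, was at -0.37. Modifier subunits, which form no channel alone and alter Kv2 channels, had 6 of 8 tested genes below 0 and a median of -0.38. Kcns2 had the smallest p of them. Its mean was 97.3 ± 14.2 in the controls and 61.8 ± 21.8 in LINE-1a libraries (SD, n = 3), a log2 fold change of -0.70 ± 0.29 (SE), or -0.43 without LINE-1a 2.

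Genes of channels opened by calcium or sodium and of their beta subunits had log2 fold changes above 0 in 9 of 11 tested genes, with a median of 0.31, while over all features 52.9% were above 0. None passed. The sodium-activated Kcnt1 (Slack) was 2015, 2171 and 1835 in dCas and 2263, 2595 and 2940 in LINE-1a libraries. Its relative Kcnt2 (Slick) was 40.1, 29.4 and 32.0 in dCas and 63.8, 107 and 45.3 in LINE-1a libraries. Neither overlapped between the groups, and their log2 fold changes were 0.37 ± 0.15 and 0.99 ± 0.34 (SE), each with a limma adjusted p of 0.325. For Kcnt2 LINE-1a 2 was highest, and for Kcnt1 LINE-1a 3. With sex as a covariate, where the difference rests on LINE-1a 3 alone, Kcnt2 was at 0.42 and Kcnt1 at 0.55. Kcnma1, the pore of BK channels, averaged 5145 ± 772 in controls and 6069 ± 952 in LINE-1a vermis (SD, n = 3), and its log2 fold change was 0.24, or 0.11 without LINE-1a 2, 0.12 without dCas 3 and -0.08 once the trend with genomic span was removed from each library. Kcnn2, the SK2 channel that sets the regular firing of Purkinje cells, was 746 ± 119 and 1130 ± 433, with 1617 in LINE-1a 2 and 788 in LINE-1a 1, the latter inside the dCas range. Kcnmb1, a BK beta subunit best known from smooth muscle, was 151 ± 6.46 and 191 ± 27.1 without overlap. Its gene lies within the span of the more abundant Kcnip1 on the opposite strand. Whether reads of Kcnip1 enter the Kcnmb1 values was not tested. Kcnmb4, the neuronal BK beta subunit, was 533 ± 34.8 and 626 ± 92.3. It shares 10.7% of its exon length with Kcnmb4os1 on the opposite strand and 20.8% with Kcnmb4os2, which was not analysed here, and reads on the shared bases cannot be assigned without strand. Kcnmb4os1, for which the shared bases are 43.1% of the exons, was 122 ± 30.2 and 114 ± 13.7.

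**Figure D3:**
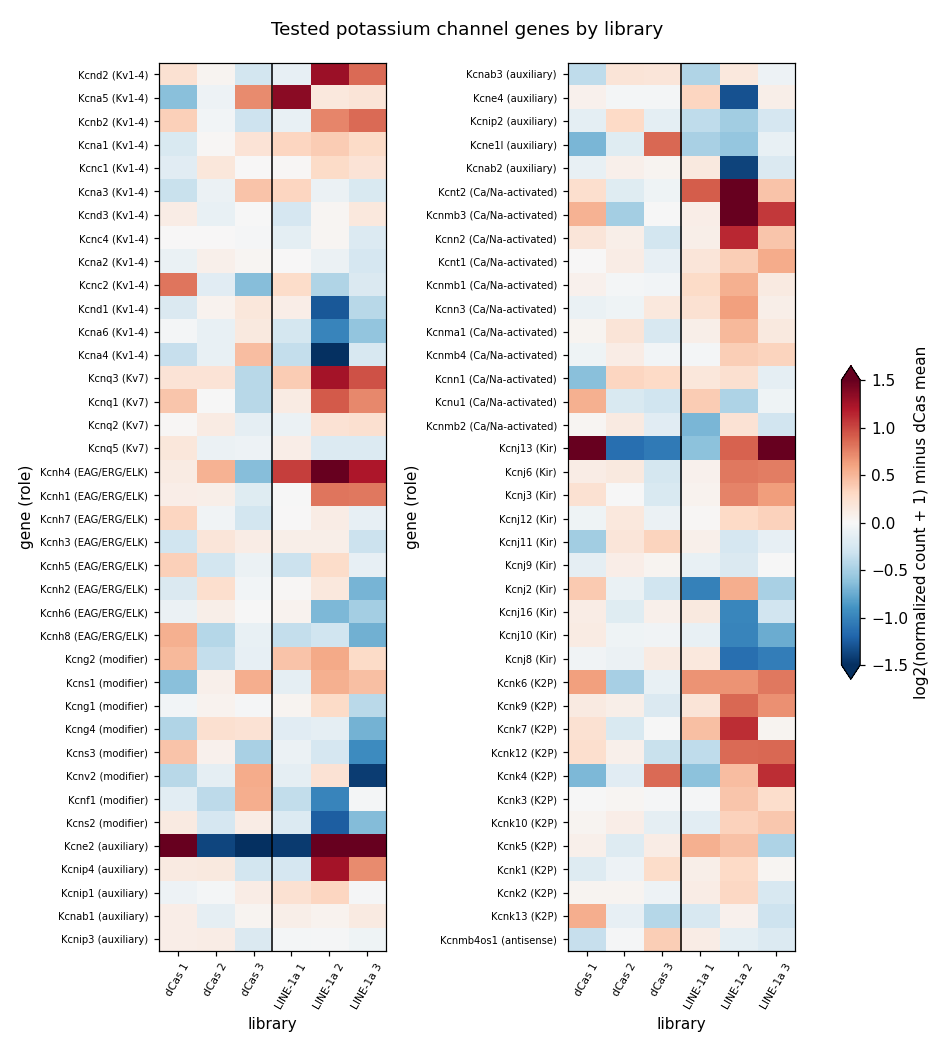
Log2(normalized count + 1) minus the mean of the dCas libraries for 76 of the 79 tested potassium channel genes, ordered by role and then by fold change, with colours capped at 1.5 in either direction. Strong colours gather in LINE-1a 2 and LINE-1a 3, LINE-1a 1 is pale for most genes, and Kcnj13 and Kcne2 are as high in dCas 1 as in LINE-1a 3.

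Of the 10 tested inward rectifiers 4 had log2 fold changes above 0 and 6 below, with a median of -0.10. The neuronal, G protein-coupled subunits Kcnj3 (GIRK1) and Kcnj6 (GIRK2, mutated in weaver mice) had higher LINE-1a means. Kcnj3 was 3547, 3012 and 2568 in dCas and 3137, 5067 and 4651 in LINE-1a libraries, which gave 0.48 ± 0.21 (SE) as its log2 fold change. A gene annotated on the opposite strand covers 31.1% of the exon length of Kcnj3, and reads on the shared bases cannot be assigned without strand. Kcnj6 was 2264, 2313 and 1739 in dCas and 2189, 3600 and 3543 in LINE-1a libraries (0.54 ± 0.22). For both, LINE-1a 2 and LINE-1a 3 were above all dCas values and LINE-1a 1 was among them. Kcnj9 (GIRK3), also neuronal, was 2467 ± 204 and 2279 ± 163 (SD, n = 3; log2 fold change -0.11).

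Kcnj10, Kcnj16 and Kcnj8, known from glia and pericytes, had lower LINE-1a means. Kcnj10 (Kir4.1), the main potassium channel of astrocytes and Bergmann glia, was 2957, 2599 and 2618 in dCas and 2513, 1368 and 1617 in LINE-1a libraries. The groups did not overlap, and LINE-1a 1 was close to the lowest dCas value. Its log2 fold change was -0.62 ± 0.22 (SE, 95% interval -1.10 to -0.13, limma adjusted p = 0.325). For its partner Kcnj16 (Kir5.1), LINE-1a 2 held 432, LINE-1a 3 held 696 and the other 4 libraries 750 to 944. Kcnj8 (Kir6.1), a channel of pericytes, was 165, 160.4 and 187 in dCas and 191, 77.4 and 82.3 in LINE-1a libraries (-0.67 ± 0.33), and its sulphonylurea receptor partner Abcc9 was at -0.51. With sex as a covariate, which sets LINE-1a 3 alone against dCas, Kcnj8 was at -1.04. Without LINE-1a 1 it was at -1.09 and without LINE-1a 2 at -0.44. Astrocyte and Bergmann glia markers were lower in the same libraries. All 10 had a log2 fold change below 0, with a median of -0.44, and their summed level was 208191 to 233081 in dCas and 187111, 96856 and 143321 in LINE-1a 1, 2 and 3, with none at 0. All 8 oligodendrocyte markers were also below 0, with a median of -0.58. Their sums were 355547, 276447 and 270288 in dCas and 288470, 125824 and 190259 in LINE-1a libraries. Of 8 endothelial and pericyte markers 6 were below 0, with a median of -0.40, and their sum was 10707 to 11550 in dCas and 12186, 7886 and 9388 in LINE-1a libraries. The part of these cell types in the values of Kcnj10, Kcnj16 and Kcnj8 was not tested.

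Kcnj13 (Kir7.1) and Kcne2, which sit in the apical membrane of choroid plexus epithelium, differed far more between libraries than between groups. Kcne2 was 577, 11.8 and 4.0 in dCas and 11.3, 176 and 519 in LINE-1a libraries. Kcnj13 was 1901, 189 and 198 in dCas and 270.5, 769 and 2182 in LINE-1a libraries. Both were high in dCas 1 and LINE-1a 3, intermediate in LINE-1a 2 and low in the other 3, and the groups overlapped. Ttr, the transthyretin gene and main choroid plexus marker, was 81570, 760.3 and 144 in dCas and 1208, 34324 and 102965 in LINE-1a libraries. The 14 choroid plexus markers, Ttr among them, summed to 150771, 9607 and 9732 in dCas and 10229, 45110 and 160229 in LINE-1a libraries, with none at 0. With Ttr left out the sums were 69201, 8847 and 9588 in dCas and 9021, 10785 and 57264 in LINE-1a libraries. LINE-1a 2 was then close to the low libraries. The limma log2 fold changes were 1.65 ± 1.73 for Kcne2 and 0.89 ± 0.92 for Kcnj13 (SE). On the recovered reads they were only 0.25 and 0.49 in DESeq2 and 0.30 and 0.53 in edgeR. In limma with the choroid plexus content of each library as a covariate, an alternative chosen after seeing the data, they were 0.12 and 0.07. Without dCas 1 they were 3.70 and 1.98 (limma adjusted p = 0.306 and 0.306), without LINE-1a 1 3.19 and 1.64, and without LINE-1a 3 0.49 and 0.14. Without dCas 2 they were 0.95 and 0.32, and without dCas 3 0.28 and 0.36. With sex as a covariate, which sets LINE-1a 3 alone against dCas, they were 3.97 and 2.39. Exons of Gigyf2 on the opposite strand cover 49.1% of those of Kcnj13, and Gigyf2 itself was 2716 to 5011 in dCas and 2920 to 5048 in LINE-1a libraries, and reads on the shared bases cannot be assigned without strand.

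**Figure D4:**
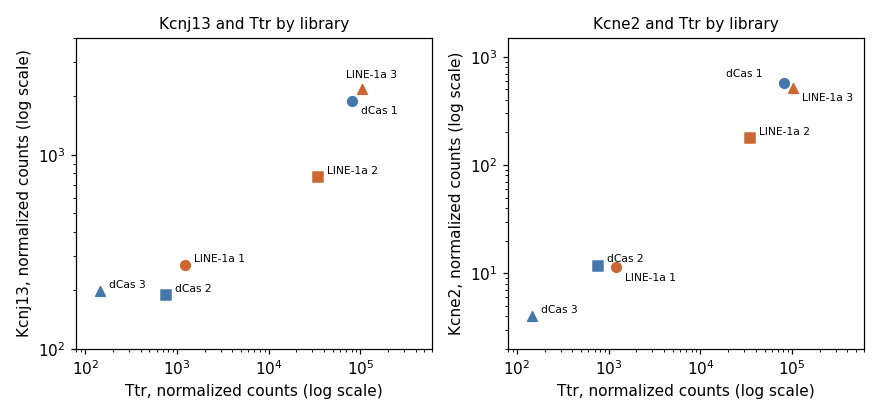
Kcnj13 (left) and Kcne2 (right) against Ttr, in normalized counts on log axes, with 1 labelled point per library. In both panels dCas 1 and LINE-1a 3 lie at the top right and dCas 2, dCas 3 and LINE-1a 1 at the bottom left, with LINE-1a 2 between them.

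The 2-pore-domain channels, which carry the resting leak, had log2 fold changes above 0 in 10 of 11 tested genes, with a median of 0.22. None passed. Kcnk9 (TASK-3), part of the standing outward current of granule cells, was 817, 787 and 636 in dCas and 846, 1352 and 1193 in LINE-1a libraries, without overlap (0.58 ± 0.20 SE on the log2 scale, limma adjusted p = 0.325). LINE-1a 1 was just above the highest dCas value. Kcnk1 (TWIK-1), the most abundant of them per kilobase, was 2048 ± 354 and 2245 ± 229 (SD, n = 3). Kcnk6, at 9.25 ± 4.14 and 15.0 ± 0.768, did not overlap either, at a level near the minimum for testing.

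Across the whole family, 8 of 79 genes lay higher and 4 lower in LINE-1a libraries without overlap, which is 10.1% and 5.06%, against 9.88% and 12.3% of all features. The libraries did not contribute alike. In LINE-1a 1, 22.8% of the tested potassium channel genes were above and 17.7% below the dCas range. In LINE-1a 2 the shares were 46.8% and 21.5%, and in LINE-1a 3 they were 36.7% and 31.6%. Over all features the shares were 22.9% and 22.1%, 40.1% and 34.5%, and 31.7% and 33.4%. Without LINE-1a 1, 26 potassium channel genes (32.9%) had an unadjusted p under 0.05, 18 higher and 8 lower, against 28.5% of all features. The smallest adjusted p was then 0.0914, and 0 passed. Without LINE-1a 2 or without LINE-1a 3 the number was 4 (5.06%, 3 higher and 1 lower each), against 7.41% and 8.7% of all features. Without dCas 1 it was 17 (21.5%, all features 15.5%), without dCas 2 it was 8 (10.1%, all features 6.63%) and without dCas 3 it was 6 (7.59%, all features 7.71%).

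Fold changes above 0 were more frequent among potassium channel genes that span long stretches of genome, but were not confined to them. Of the 18 tested potassium channel genes of at least 200 kb, 12 were above 0, with a median log2 fold change of 0.36, and 5 (27.8%) had an unadjusted p under 0.05, all higher. Of all annotated features of that span, 18% were higher and 2.45% lower at that level. Of the 28 under 20 kb, 12 were above 0, with a median of -0.09. Of the 28 that span 20 to 100 kb, 13 were above 0, with a median of -0.03. The table as a whole also had higher fold changes in longer genes. Among all annotated features, 79.6% of the 978 spanning at least 200 kb were above 0, with a median of 0.27, against 44.1% of the 6513 under 20 kb, with a median of -0.05. For the long potassium channel genes the median deviation from the dCas mean was 0.04, 0.61 and 0.28 in LINE-1a 1, 2 and 3 and 0.18, -0.02 and -0.21 in dCas 1, 2 and 3, so the libraries of each group also differed among themselves in this respect. Spearman's rho between fold change and span was 0.22 over the 79 potassium channel genes and 0.18 over 15243 features, as a description across genes, which share libraries and are not independent replicates. With the trend with span removed from each library, an alternative chosen after seeing the data, 8 genes (10.1%) had an unadjusted p under 0.05, of which 6 were higher, against 15.4% of all features, and Kcnd2 was at 0.39, Kcnip4 at 0.19 and Kcnq3 at 0.65.

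**Figure D5:**
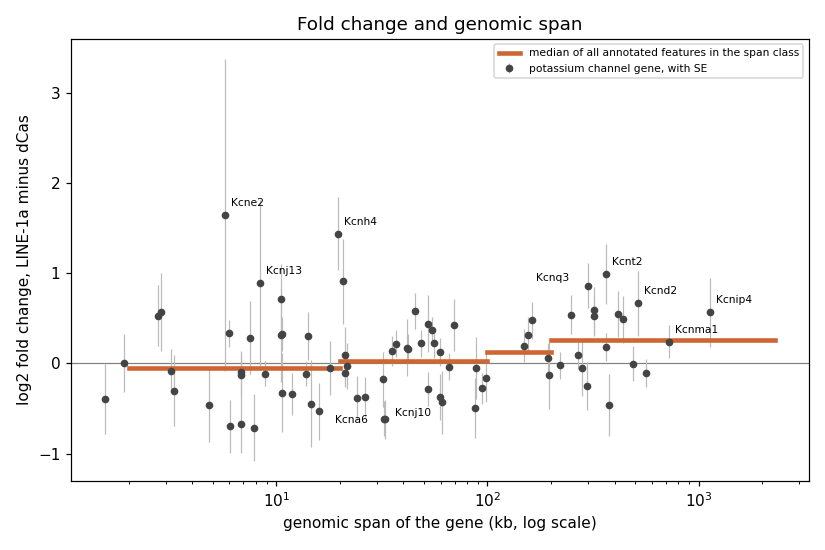
Log2 fold change (LINE-1a minus dCas, with SE) of the 79 tested potassium channel genes against the genomic span of the gene in kb (log axis), with orange bars for the median of all annotated features in 4 span classes. The medians of all features go from -0.05 under 20 kb to 0.27 at 200 kb and above, and Kcnd2, Kcnip4, Kcnq3 and Kcnt2 lie at the right, above 0.

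Genes outside the Kcn symbols that serve the same channels were also not called. Of 26 tested auxiliary and anchoring proteins, 14 were above 0 and 12 below, with a median of 0.04. At an unadjusted limma p under 0.05 there were 4, 1 of them higher, where 15.3% of all features reached that level. The higher one was Cntnap2 (Caspr2, which clusters Kv1 channels next to the node), at 0.72, a gene of 2245 kb. The lower ones were Lrrc55, a BK gamma subunit, at -1.07, Cntnap1, a paranodal protein, at -0.55 and Lgi2, a secreted synaptic protein, at -0.38. Of 7 other potassium-permeable channels, 2 were above 0 and 5 below, with a median of -0.06. Of 11 genes for subunits of the sodium-potassium pump and for cation-chloride cotransporters, 6 were above 0 and 5 below, with a median of 0.04. Among them Atp1b3, a pump beta subunit, had the only unadjusted limma p under 0.05 (log2 fold change 0.44).

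Markers of other cell types, some of them given above, gave the setting of these values, and none of these markers passed. Median log2 fold changes were -0.58 for 8 oligodendrocyte markers, -0.40 for 8 Purkinje cell markers, 0.01 for 8 granule cell markers and 0.06 for 6 molecular layer interneuron markers. They were -0.54 for 5 tested markers of Golgi cells and cerebellar or brainstem nuclei, 0.13 for 8 microglia markers, 0.06 for 7 meningeal markers, -0.001 for 3 tested unipolar brush cell markers and 0.93 for the 14 choroid plexus markers.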

How the data were processed

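Total RNA of the cerebellar vermis was extracted from 6 mice and made into libraries, per the labels' protocols, and strain labels set the groups of 3. The authors deposited normalized counts, a signal equal to reads per gene divided by 1 size factor per library. Per the submitters' processing notes, the builds were mm10 and GRCm38 and the tools included DESeq2, SAMtools 1.9, bedtools 2.27.1, Bowtie2 2.2.9 and STAR 2.5.3a. Which tool counted reads, and on which annotation, is not stated. The kit, NEBNext Ultra II RNA, does not mark strand. Dividing by the size of 1 read in each library gave whole reads for 100% of values, within 0.001 reads. No library copied another of its group, since chi-square divided by degrees of freedom came to 25.8 or more for each pair within a group. Nothing says that the mice came from separate litters, and p-values measure only the spread between them.

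limma-trend 3.58.1 (R 4.3.3) was fitted on log2(normalized count + 1) for the 15800 features whose mean reached 10. Its p-values are two-sided and were adjusted over all of them by Benjamini-Hochberg. Fold changes on that scale understate the change of low genes. Of these features 530 are repeat elements. edgeR 4.0.16 and DESeq2 1.42.0 on recovered reads were alternatives, and the limma fit was tested on simulated data. The simulated reads were drawn for each gene independently, so they do not test the fit against differences that libraries share across genes. Positions, spans and exon lengths came from GENCODE M21 (GRCm38) by symbol. The members, roles and lists were chosen with earlier results of these data known. Genes were named if they passed, if they were among the 10 of smallest p in either direction or the 10 of highest level per kilobase, if they had the smallest p of their role, or if they are well known in the cerebellum, and pathway genes if their unadjusted p was under 0.05. Kcnj9, Kcnj16, Kcnk6, Kcnmb1 and Kcnmb4, the pathway genes Dpp6, Dpp10 and Abcc9, and the overlapping gene Gigyf2 were named after their values were seen. Some genes that these rules name are not reported here, though all counts and medians include them. The table of ERV loci was not used.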

Additional observations from a re-analysis of the deposited data

How the results depend on the processing

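In each of the 21 alternatives, 0 potassium channel genes passed an adjusted p of 0.05. The median log2 fold change over the tested genes went from 0.06 to 0.18 with equal totals in every library, where the median of all features went from 0.03 to 0.15, so the family's median relative to all features changed little. It was 0.04 to 0.10 when single libraries were left out and -0.02 with sex as a covariate or in the male libraries alone, where the lone LINE-1a library is assumed to vary like the dCas libraries. Some of the named genes changed sign. With equal totals Kcnip3 was at 0.080, Kcnd3 at 0.10, Kcna2 at 0.0069, Kcnj9 at 0.0054 and Kcnmb4os1 at 0.038. In the male libraries alone, and with sex as a covariate, Kcnd3 was at 0.15 and Kcnip1 at -0.018. With the trend in exon length and GC removed Kcnip3 was at 0.016, and with that in genomic span removed Kcnab1 was at -0.11, Kcnip1 at -0.054 and Kcnma1 at -0.081. With choroid plexus content as a covariate Kcnmb4os1 was at 0.037. Leaving out single libraries took Kcnip3 from -0.15 to 0.018, Kcnmb4os1 from -0.25 to 0.10 and Kcnd3 from -0.11 to 0.092. The cause of these changes was not tested. With the replicate number as a block 0 genes passed and the median was 0.06. Libraries of the same number deviated with correlations of -0.21, 0.14 and -0.09. Each value rests on a single library of each group, so they cannot decide whether the numbers pair the mice. With 3 mice per group, intervals such as that of Kcnd2 (-0.14 to 1.48 on the log2 scale) are wide.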
